A study of Mus musculus with 6 samples.

Results

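The liver breaks down most dietary amino acids and runs much of the body's one-carbon metabolism, and 37 mouse genes for these enzymes were examined here in the livers of mice on a normal or a high-fat diet. The list was drawn up by gene name and function, with earlier results of these data known, and holds enzymes that degrade tyrosine, tryptophan, histidine, lysine, proline and the branched-chain amino acids, transaminases, enzymes that make or use serine, glycine and asparagine, and the methionine cycle. Of the 37 genes 35 had a probe set that carries 1 gene symbol, with 60 such probe sets in all, out of 18193 named genes and 45101 probe sets on the array. One of the 35, Mut, is listed under its newer symbol Mmut. Gcat was present only on probe sets that carry another symbol too and Sds on none that is named here, so both have no value here. Psat1 was below the level filter, which left 34 tested genes.

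Male C57BL/6 mice, an inbred strain, were 8 weeks old when they began 12 weeks on a normal diet or on a high-fat diet that drew 60% of its calories from fat. Each diet had 6 mice, and liver RNA was combined from pairs of animals, read here as 3 pools of 2 mice, each on its own Affymetrix mouse expression array. Both groups were otherwise handled alike in the labels, and a pool is the unit of replication (n = 3 arrays per diet), so the spread between single mice is not seen. Levels are log2 values per probe set, so a difference of 1 is a doubling, and a difference is the high-fat mean minus the normal diet mean, given ± its standard error (SE) from the limma model. P-values measure the spread between these pools.

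Amino acid catabolism strips the amino group, by transaminases or by a specific deaminase, and feeds the remaining carbon into glucose, ketone bodies or the citric acid cycle. Several of its first steps, such as those run by the products of Tat, Tdo2 and Hal, are known in liver as targets of glucocorticoids, glucagon and diet. One-carbon metabolism moves single carbon units from serine and glycine through folate, and through methionine, whose activated form donates methyl groups. Its liver steps include the synthesis of that methyl donor by Mat1a and its use by Gnmt.

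The summed level of hepatocyte markers differed little between the diets, although single markers shifted. For 7 such markers, among them albumin and transthyretin, the sum lay between 16.69 and 16.70 on the log2 scale in the normal diet arrays. In the high-fat arrays it lay between 16.65 and 16.68, so these ranges did not overlap. Among the 7 markers 6 had no overlap of the diets (85.7%, against 35.8% of all tested genes), 4 of them up and 2 down. Limma called 1 of the 7, the fibrinogen gene Fgb, which fell (-0.78 ± 0.12, adjusted p = 0.0131). Ahsg differed by -0.24 without a call (limma unadjusted p = 0.0401, adjusted p = 0.162). In the same arrays 6 of 8 macrophage markers rose (Adgre1, Cd68, Csf1r, Cd5l, Vsig4 and Lyz2), as did 3 of 7 stellate cell markers (Lrat, Dcn and Col3a1) and 1 of 7 endothelial markers (Lyve1). Of all tested genes limma called 5.87% higher and 1.73% lower, and 27.6% had an unadjusted p below 0.05. Summed macrophage markers went from 11.23 to 11.45 in the normal diet arrays to 11.99 to 12.09 in the high-fat arrays, and stellate markers from 10.54 to 10.57 to 11.11 to 11.48. Limma called 0 of 3 cholangiocyte, 0 of 3 lymphocyte, 0 of 3 neutrophil, 0 of 2 erythroid, 0 of 2 pancreas and 0 of 2 kidney markers, with 1 cholangiocyte marker (Epcam, -0.41) and 1 neutrophil marker at an unadjusted p below 0.05, and no adipocyte marker passed the level filter. Fewer cells of a type and less RNA per cell cannot be told apart in whole liver, and the part of these shifts in the results below was not tested. Normal diet 3 stood apart from the other arrays: across the tested genes its correlation (Pearson's r) with normal diet 1 and 2 was 0.972 and 0.974, against 0.988 between those arrays and 0.992 to 0.994 among the high-fat arrays. With the high-fat arrays normal diet 1 and 2 correlated at 0.9735 to 0.9798 and normal diet 3 at 0.9511 to 0.9532. Normal diet 1 and 2 were thus about as close to the high-fat arrays as to normal diet 3. For the tested genes of the list, by the probe set used, differences that normal diet 3 moved by more than 1.5-fold are also given without it. Differences of other probe sets and of uncalled genes outside the list are given with all arrays only, so they can depend on normal diet 3.

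Kmo fell under the high-fat diet and was the only one of the 34 genes to pass an adjusted p of 0.05. No gene of the list rose. That is 2.94% of the list called, against 7.6% of all 14071 tested genes (5.87% higher and 1.73% lower; of all calls 77.2% were higher, and 66.4% after quantile normalization), so the list did not hold more calls than the liver transcriptome as a whole. At an unadjusted p below 0.05 there were 7 of 34, 3 higher and 4 lower, where 27.6% of all tested genes reached that mark. In 12 of the 34 genes (35.3%) all arrays of one diet lay above all of the other, against 35.8% of all tested genes. The median difference was 0.15 over the list and 0.0033 over all tested genes, and 29 of the 34 differed by less than 0.5 in either direction. Without normal diet 3 the list's median was 0.025, with 18 positive and 16 negative differences in place of 22 and 12.

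**Figure D1:**
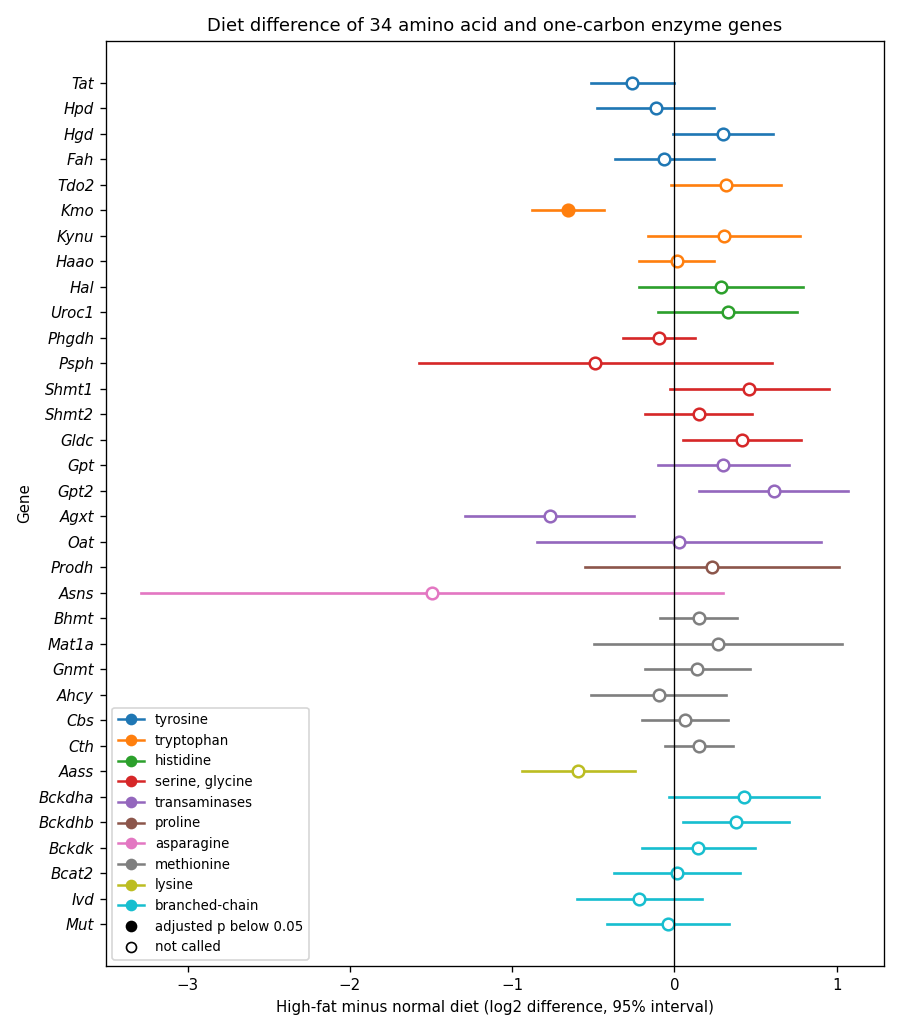
Difference between high-fat and normal diet (log2) of the 34 tested genes, ordered by pathway, with the 95% interval of limma's fit; colours mark pathways and a filled point marks an adjusted p below 0.05. Kmo, at -0.65, is the only filled point, and Asns, at -1.49, has the widest interval, from -3.29 to 0.30.

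Tryptophan is opened by the dioxygenase of Tdo2 and then passes along the kynurenine pathway, where Kmo encodes the hydroxylase that makes 3-hydroxykynurenine, Kynu the kynureninase, and Haao the dioxygenase that leads towards quinolinate and NAD. The Kmo level was 10.14, 10.12 and 9.99 in normal diet 1, 2 and 3 and 9.39, 9.48 and 9.42 in high-fat 1, 2 and 3. All high-fat arrays lay below all normal diet arrays, and the spread within each diet (SD 0.079 and 0.045) was small beside the gap. Kmo was 1.57-fold lower (-0.65 ± 0.095, limma adjusted p = 0.0116). The direction held when any array was left out, with the difference between -0.63 and -0.70, but leaving out high-fat 1, 2 or 3 moved the adjusted p to 0.0569, 0.0518 and 0.0613, and over all genes such fits made 272, 217 and 169 calls.

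The RefSeq promoter window of Kmo, from GRCm38.p6, is shown because this is the gene that changed. It spans 250 bases before to 50 after the gene's start on the + strand, chr1:175631943-175632242, and capitals would mark a match to either of 2 motifs searched on both strands, of which there is none.
Kmo: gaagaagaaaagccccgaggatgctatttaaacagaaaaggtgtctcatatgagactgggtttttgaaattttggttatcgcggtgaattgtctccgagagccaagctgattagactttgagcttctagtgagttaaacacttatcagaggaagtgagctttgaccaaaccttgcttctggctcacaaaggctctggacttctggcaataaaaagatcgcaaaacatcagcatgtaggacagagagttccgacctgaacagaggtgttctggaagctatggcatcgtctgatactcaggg
The motifs were TGATGNAA, the core of the amino acid response element that ATF4 can bind, and CAAAGTCCA, a motif of the liver factor HNF4A. They occur in 3.97% and 0.475% of 32851 mouse promoter windows of this length. Promoter windows were found for 30 of the 37 genes (33 windows), and 1 of these, that of Asns, holds the first motif and 0 the second.

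The genes for the steps before and after Kmo were not called. Tdo2 was at 13.12, 13.04 and 12.77 under the normal diet and 13.41, 13.42 and 13.06 under the high-fat diet. These ranges overlap, the lowest high-fat array lying between normal diet 1 and 2, and the difference was 0.32 ± 0.15 (adjusted p = 0.205). Kynu and Haao differed by 0.30 and 0.014 and were not called, with 95% intervals of -0.16 to 0.77 and -0.22 to 0.24. They differed by 0.11 and -0.039 once normal diet 3 was left out, and Kynu by 0.17 without high-fat 3. The second Kynu probe set, at a mean of 3.92 and 3.56, differed by -0.36. Among genes of the same routes outside the list, Aadat, which encodes an aminotransferase of kynurenine and of the lysine product aminoadipate, differed by -0.76 ± 0.20 (adjusted p = 0.0596) and Qprt, whose product uses quinolinate, by 0.56 ± 0.15 (adjusted p = 0.0685). Amdhd1, of histidine breakdown, differed by 0.41 ± 0.14 (adjusted p = 0.109). None of the 10 tested genes of these routes outside the list was called by limma (4 at an unadjusted p below 0.05). Of all tested genes 7.6% were called and 27.6% reached that unadjusted p.

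**Figure D2:**
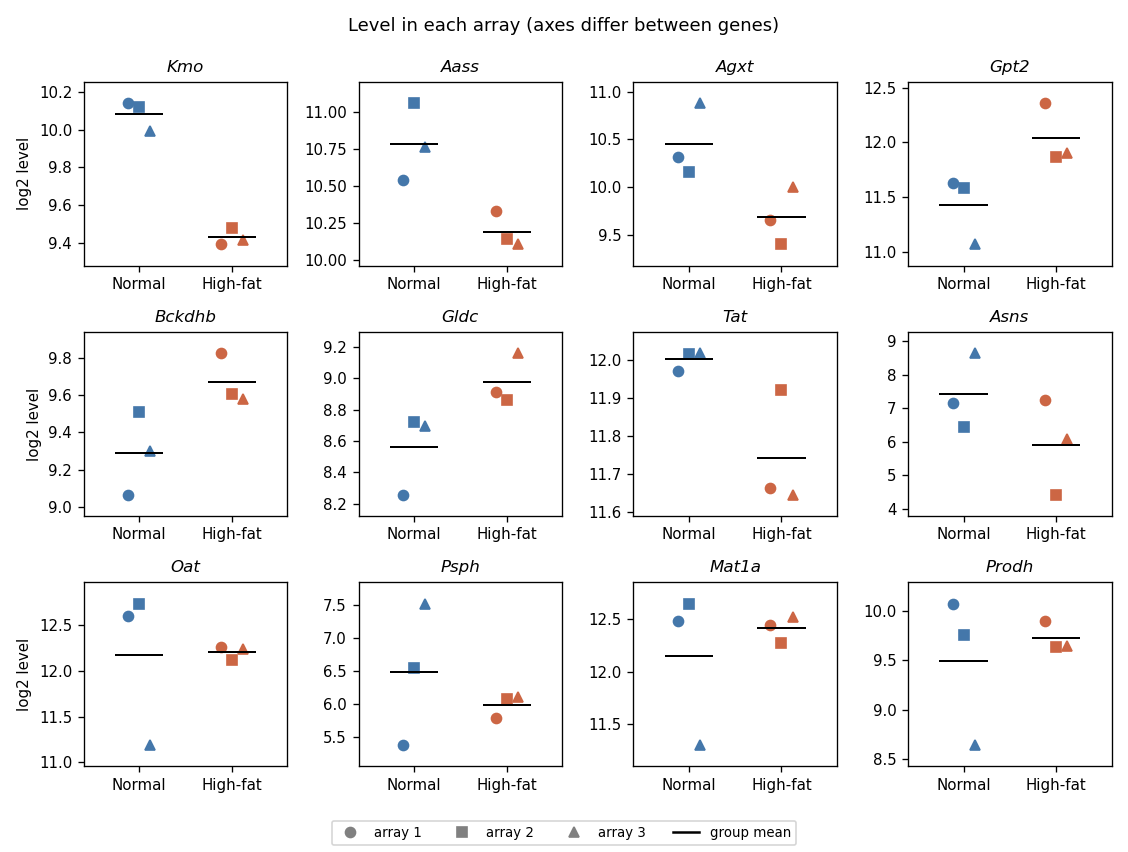
Log2 level of 12 genes of the list in each array, with circles, squares and triangles for array 1, 2 and 3 of a diet and a line at the group mean; the axes differ between genes. Kmo, Aass and Agxt are lower in all 3 high-fat arrays, while Oat, Mat1a and Prodh have normal diet 3 (triangle) far below the other arrays.

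Lysine is degraded in mitochondria by the bifunctional enzyme of Aass. Aass was at 10.54, 11.06 and 10.76 in the normal diet arrays and at 10.33, 10.14 and 10.11 in the high-fat arrays. The diets did not overlap, and the nearest pair, normal diet 1 and high-fat 1, lay 0.21 apart. The difference of -0.59 ± 0.15 corresponds to 1.51-fold and did not pass (adjusted p = 0.0563). Quantile-normalized values gave -0.67 and a call (adjusted p = 0.0398), as did cyclic loess at -0.72 (adjusted p = 0.0322). Array weights at -0.66 and leaving normal diet 1 out at -0.72 did so too (adjusted p = 0.0276 and 0.0348). The other 13 of 17 alternatives gave no call, with adjusted p up to 0.179 without high-fat 3.

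Of the transaminases, Agxt encodes the enzyme that turns glyoxylate into glycine, Gpt and Gpt2 the cytosolic and mitochondrial alanine aminotransferases, and Oat ornithine aminotransferase. Agxt was at 10.32, 10.15 and 10.88 under the normal diet and 9.65, 9.40 and 10.00 under the high-fat diet. Normal diet 3 was the highest array and the groups did not overlap. The difference was -0.77 ± 0.22, 1.70-fold, without passing (adjusted p = 0.0804). Without normal diet 3 it was -0.55.

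Gpt2 lay the other way. Its levels were 11.63, 11.58 and 11.06 under the normal diet and 12.36, 11.86 and 11.90 under the high-fat diet. Every high-fat array was above every normal diet array, the difference was 0.61 ± 0.20 (adjusted p = 0.101), and it did not pass. The 3 other Gpt2 probe sets differed by 0.65, 0.41 and 0.63, in the same direction. Gpt differed by 0.30 ± 0.17 and was not called, by 0.12 without normal diet 3, and its second probe set by 0.0091.

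Oat shows how far 1 pool could carry a mean. It was at 12.61 and 12.74 in normal diet 1 and 2 but 11.19 in normal diet 3, and at 12.26, 12.12 and 12.24 in the high-fat arrays. With all arrays the difference was 0.028 ± 0.37 and was not called. Leaving normal diet 3 out gave a called difference of -0.47 (adjusted p = 0.0404). Oat, Prodh and Psph were picked for a full account after their values were seen.

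Glycine and serine are linked by the hydroxymethyltransferases of Shmt1 in the cytosol and Shmt2 in mitochondria, serine is made from a glycolytic intermediate by Phgdh, Psat1 and Psph in turn, and Gldc encodes the decarboxylase of the glycine cleavage system. Gldc was at 8.26, 8.72 and 8.70 under the normal diet and 8.91, 8.86 and 9.16 under the high-fat diet. The groups did not overlap, and the difference of 0.42 ± 0.16 did not pass (adjusted p = 0.14). It was 0.27 without normal diet 1. Shmt1 also did not overlap (9.14 to 9.92 against 10.03 to 10.23), with a difference of 0.46 ± 0.21 that did not pass and was 0.21 without normal diet 3. Its 3 other probe sets differed by 0.64, 0.11 and 0.47. Shmt2 differed by 0.15 ± 0.14, by 0.018 without normal diet 3 and by 0.28 without normal diet 1. The 3 other Shmt2 probe sets differed by 0.0348, -0.0885 and -0.0138, so the sign is uncertain.

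The serine synthesis genes gave no call. Psat1 was at 2.88 to 3.57 in normal diet arrays and 3.21 to 3.47 in high-fat arrays, near or below the level filter of 3.48 to 3.59, and has no test. Psph was at 5.39, 6.54 and 7.51 in normal diet 1, 2 and 3 and at 5.80, 6.07 and 6.11 in the high-fat arrays. The normal diet pools spanned the high-fat range on both sides, and the difference of -0.49 ± 0.46 became 0.032 without normal diet 3 and -1.03 without normal diet 1. For Phgdh the probe set used differed by -0.094 ± 0.096 (-0.053 without normal diet 3 and -0.059 without high-fat 2), and the 3 others by -0.41, -0.19 and -0.17. All of its probe sets with 1 symbol are of a kind that can match several transcripts, so its value is uncertain.

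Asns, which encodes asparagine synthetase and makes rather than degrades an amino acid, had the largest difference of the list and the widest spread. It was at 7.16, 6.44 and 8.63 under the normal diet and at 7.24, 4.43 and 6.08 under the high-fat diet. High-fat 1 lay among the normal diet arrays and high-fat 2 was the lowest, so the groups overlapped. The difference of -1.49 ± 0.77, 2.82-fold, was not called (adjusted p = 0.248), and it ran from -0.75 without high-fat 2 to -2.16 without high-fat 1. Omitting normal diet 3 gave -0.89. The second probe set followed the same order of arrays, with levels of 5.59, 4.79 and 7.07 against 5.97, 2.48 and 4.18 and a difference of -1.60.

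Asns is a known target of the amino acid response, in which shortage of amino acids raises the factor ATF4. Its RefSeq promoter window (GRCm38.p6, - strand, chr6:7693160-7693459) is shown for the match to TGATGNAA, in capitals, which starts 23 bases before the gene's start.
Asns: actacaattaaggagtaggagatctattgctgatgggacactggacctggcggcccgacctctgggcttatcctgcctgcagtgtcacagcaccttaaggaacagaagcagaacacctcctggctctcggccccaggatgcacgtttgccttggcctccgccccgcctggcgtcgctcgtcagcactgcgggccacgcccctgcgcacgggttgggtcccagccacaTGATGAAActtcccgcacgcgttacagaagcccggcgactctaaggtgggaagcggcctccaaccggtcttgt
A match is a description of the letters and does not show binding here. Of 14 tested genes of the amino acid response 1 rose, 0 fell and 13 were not called, so 7.14% were called, against 7.6% of all tested genes. The called gene was Trib3, a feedback inhibitor of ATF4 (0.68 ± 0.12, adjusted p = 0.0210), while Atf4 itself differed by -0.37 ± 0.20 and was not called. Atf4 was at 10.09 in normal diet 3 and at 9.32 and 9.49 in normal diet 1 and 2. At an unadjusted p below 0.05 there were 3 of the 14 genes, all higher, where 27.6% of all tested genes reached that mark. Besides Trib3 these were Ddit4 (0.83 ± 0.21) and Atf3 (0.42 ± 0.11), which did not pass (adjusted p = 0.0584 and 0.0559). Trib3 was at 4.41, 4.39 and 4.37 under the normal diet and 5.27, 5.10 and 4.86 under the high-fat diet. Leaving out high-fat 1 or 2 ended its call (adjusted p = 0.0740 and 0.0900).

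In the methionine cycle Mat1a makes S-adenosylmethionine, Gnmt uses it to methylate glycine, Ahcy clears the product, Bhmt remethylates homocysteine with betaine, and Cbs and Cth lead homocysteine to cysteine. None of the 6 was called, and their differences ran from -0.097 (Ahcy) to 0.27 (Mat1a). Gnmt was at 13.16, 13.57 and 13.11 under the normal diet and 13.45, 13.36 and 13.45 under the high-fat diet, a difference of 0.14 ± 0.14 that was 0.057 with normal diet 3 omitted and 0.29 with normal diet 2 omitted. Cth was at 11.46, 11.37 and 11.40 against 11.57, 11.53 and 11.59. Its diets did not overlap, yet the difference was only 0.15 ± 0.090, with a 95% interval of -0.057 to 0.36. Mat1a was at 12.49, 12.65 and 11.31 against 12.44, 12.28 and 12.52, so normal diet 3 set the sign: the difference was 0.27 ± 0.33 with it and -0.15 without it. Bhmt differed by 0.15 ± 0.10 without overlap of the diets, by 0.089 without high-fat 1, and Cbs by 0.067 ± 0.11. Ahcy was at -0.29 and Cbs at 0.14 when normal diet 3 was omitted. Cbs lay below 0 after quantile normalization and cyclic loess.

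Tyrosine is degraded in turn by the products of Tat, Hpd, Hgd and Fah, and histidine by those of Hal and Uroc1. Tat was at 11.97, 12.02 and 12.02 under the normal diet and 11.66, 11.92 and 11.65 under the high-fat diet. The high-fat arrays were all lower, but high-fat 2 by little, and the difference of -0.26 ± 0.11 did not pass (adjusted p = 0.178). Hgd differed by 0.30 ± 0.13, Hpd by -0.12 ± 0.15 and Fah by -0.061 ± 0.13. None was called. Without normal diet 3 these were 0.18, -0.27 and -0.19, and without normal diet 1 Hpd was at -0.011 and Fah at 0.0027. Hal was at 9.02, 8.70 and 9.55 against 9.26, 9.28 and 9.58, overlapping ranges with a difference of 0.29 ± 0.22 that was 0.52 with normal diet 3 omitted and 0.093 with normal diet 2 omitted. Uroc1 differed by 0.33 ± 0.18 and its second probe set by 0.32. In that probe set normal diet 3 was at 7.06, normal diet 1 and 2 at 7.90 and 7.91, and the high-fat arrays at 7.85 to 8.07. Without normal diet 3 or 2 Uroc1 differed by 0.13 and 0.51.

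Proline is opened by the oxidase of Prodh. Prodh was at 10.07, 9.76 and 8.64 under the normal diet and 9.90, 9.63 and 9.64 under the high-fat diet. As in Oat and Mat1a, normal diet 3 was the lowest array by far. The difference of 0.23 ± 0.34 was -0.19 without it, and 0.52 without normal diet 1. None of these was called.

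Branched-chain amino acids are transaminated by the mitochondrial enzyme of Bcat2, mostly outside the liver, and their keto acids are oxidised by a dehydrogenase whose first component is encoded by Bckdha and Bckdhb and which the kinase of Bckdk switches off. Bcat2 was at 3.55 to 4.06 under the normal diet and 3.64 to 4.02 under the high-fat diet, close to the level filter. Its difference of 0.016 ± 0.17 was -0.097 without normal diet 3. Bckdhb was at 9.07, 9.51 and 9.30 against 9.83, 9.61 and 9.58. All high-fat arrays were higher, and the difference of 0.38 ± 0.14 did not pass (adjusted p = 0.136). Bckdha, the other subunit, was likewise without overlap (8.74 to 9.55 against 9.58 to 9.67), with a difference of 0.43 ± 0.20 that was not called and was 0.20 without normal diet 3.

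The kinase gene Bckdk was at 6.32, 6.00 and 6.57 against 6.46, 6.42 and 6.46. The high-fat values lie inside the normal diet range, and the difference was 0.15 ± 0.15, with the second probe set at -0.14. Omitting normal diet 3 gave 0.28 and omitting normal diet 2 gave 0.0010. Ivd, the dehydrogenase gene of the leucine branch, differed by -0.22 ± 0.16 and its second probe set by -0.49, both without passing. Ivd differed by -0.39 and -0.074 with normal diet 3 or 1 omitted. Mut encodes the mutase that ends the propionate route and differed by -0.038 ± 0.16, and by -0.20 without normal diet 3.

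**Figure D3:**
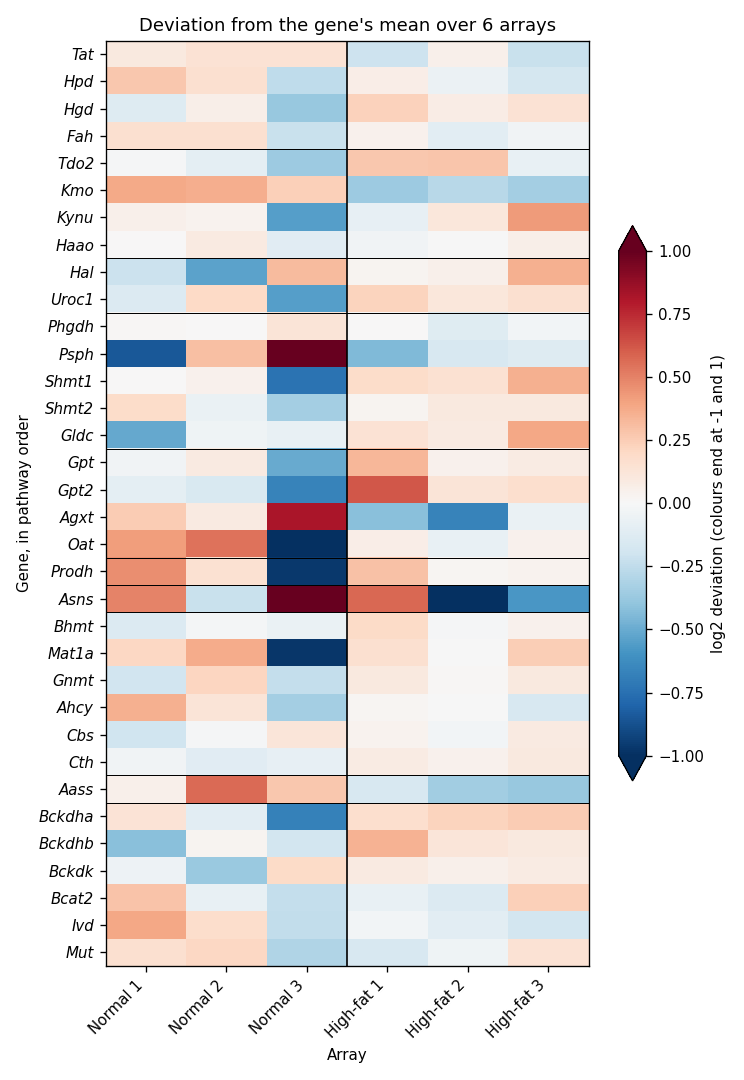
Deviation of each of the 34 genes from its mean over the 6 arrays (log2, red above and blue below), genes in pathway order and arrays in columns; colours end at -1 and 1. Normal diet 3 is the bluest column, with the lowest value of 20 genes, while Psph, Agxt and Asns are at their highest there.

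Across the list the variation lay mostly within the normal diet group. Normal diet 3 had the lowest of the 6 values in 20 of 34 genes (58.8%), against 28.0% of all tested genes, and the highest in 7, among them Asns, Psph, Agxt and Bckdk. Its median deviation from the gene means was -0.24 over the list and 0.0002 over all tested genes, while the other arrays lay between 0.0071 and 0.082 over the list. The same array was the lowest in 39 of 61 other tested genes of amino acid and one-carbon metabolism (63.9%), so this was not limited to the list. The SD between pools was larger under the normal diet in 30 of 34 genes (88.2%), against 66.7% of all tested genes and 86.9% of those 61 genes. The median SD was 0.28 and 0.11 in the normal and high-fat arrays. RNA integrity was read from Gapdh, as the 3' minus the 5' control probe set on the log2 scale: it was 0.0060 in normal diet 3 and -0.19 to 0.36 in the other arrays.

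Beyond the 37 genes, 61 further genes of amino acid and one-carbon metabolism were tested, of which 5 rose, 2 fell and 54 were not called. That is 11.5% called, against the 7.6% of all tested genes, and the median difference was 0.17. Normal diet 3 was the lowest array in 39 of these 61 genes, and their median was not computed without it. The change was largest in Csad, whose product acts on a cysteine derivative in the route to taurine: it was at 8.05, 7.42 and 7.91 under the normal diet and 9.70, 9.40 and 9.80 under the high-fat diet. The diets lay well apart, and Csad rose 3.58-fold (1.84 ± 0.19, adjusted p = 0.00424) and kept its call in all 16 alternatives that gave a value.

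In the folate and methionine routes a pair of genes rose as well. Mthfd1l, of mitochondrial folate metabolism, was at 3.95, 4.68 and 4.52 against 6.03, 5.74 and 5.48 and rose 2.58-fold (1.37 ± 0.22, adjusted p = 0.0138). Mat2b, a regulatory subunit of the other methionine adenosyltransferase, was at 7.31, 7.11 and 7.08 against 7.94, 7.97 and 7.78 and rose 1.66-fold (0.73 ± 0.11, adjusted p = 0.0124). Both lost their call without any 1 of the high-fat arrays (adjusted p from 0.0507 to 0.0639).

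In the branched-chain and propionate routes Pcca, a propionyl-CoA carboxylase subunit gene (0.59 ± 0.13, adjusted p = 0.0404), and Acad8, the isobutyryl-CoA dehydrogenase gene of the valine branch (0.54 ± 0.12, adjusted p = 0.0416), rose. Acadsb, the dehydrogenase gene of the isoleucine branch, fell (-0.53 ± 0.11, adjusted p = 0.0336). Hao1, whose product makes the glyoxylate that Agxt uses, was at 10.78, 10.61 and 10.60 against 9.99, 10.28 and 10.11 and fell 1.45-fold (-0.53 ± 0.11, adjusted p = 0.0352). The last 4 calls were lost with 1 high-fat array left out (adjusted p from 0.0712 to 0.148), as in some other settings. Pcca and Acad8 were not called after quantile normalization (adjusted p = 0.0557 and 0.0754), and averaging the probe sets of Pcca took its difference to 0.23 (adjusted p = 0.128).

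**Figure D4:**
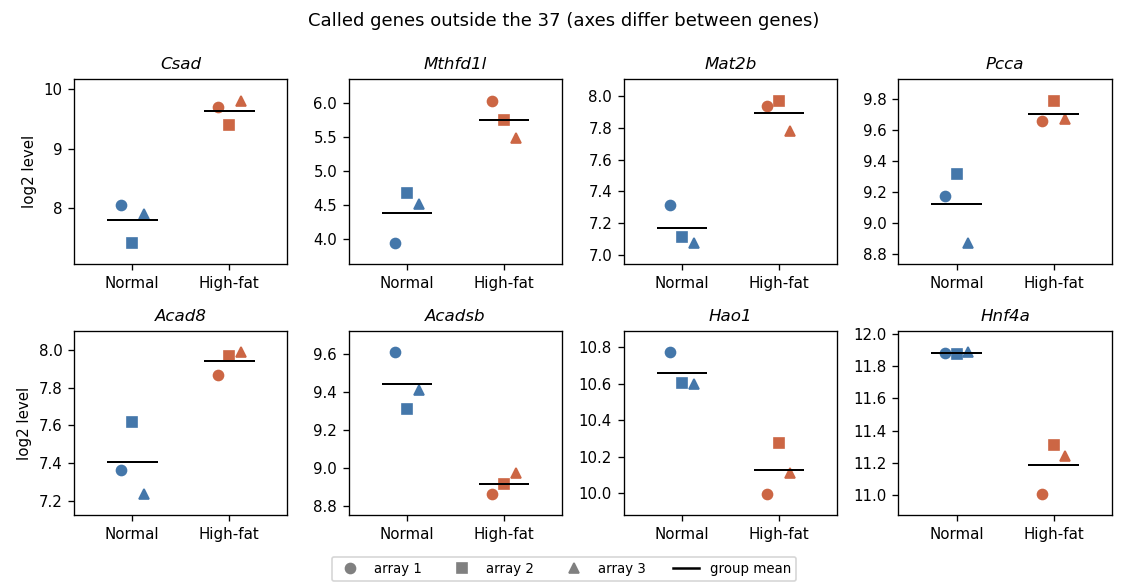
Log2 level of 7 called amino acid and one-carbon genes outside the list and of Hnf4a in each array, with circles, squares and triangles for array 1, 2 and 3 and a line at the group mean; the axes differ between genes. The diets do not overlap in any panel; Csad shows the widest gap, with means of 7.79 and 9.63.

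The urea cycle takes up the nitrogen that amino acid breakdown releases. Its genes, with carriers and genes of ammonia and glutamine handling, gave 0 calls by limma among 11 tested genes (1 at an unadjusted p below 0.05), with a median of 0.095. Of all tested genes 7.6% were called and 27.6% reached that unadjusted p. The gene at that mark was Cps1, of the first step (-0.28 ± 0.090, adjusted p = 0.10), which was lower in all 3 high-fat arrays. Arg1 and Nags differed by 0.26 ± 0.11 and -0.26 ± 0.14 (adjusted p = 0.187 and 0.249). Nags was at 8.95 in normal diet 3 and at 8.55 and 8.52 in normal diet 1 and 2. Ass1 was read by a probe set at only 3.66 to 3.99, close to the level filter, so its difference of 0.095, also the list's median, says little about the gene. Of 12 tested receptors, transcription factors and other genes of hormone action 8.33% were called, against 7.6% of all tested genes: 0 rose and 1 fell. This was Hnf4a, a nuclear receptor of hepatocytes, at 11.88, 11.88 and 11.89 against 11.01, 11.31 and 11.25 (-0.69 ± 0.11, adjusted p = 0.0138). Its call was lost when its probe sets were averaged (-0.48, adjusted p = 0.0635), when only suffix-free probe sets were used (-0.41, adjusted p = 0.215) and without any 1 of the high-fat arrays (adjusted p from 0.0508 to 0.0619). The glucagon receptor gene Gcgr and Klf15, a factor of amino acid breakdown, differed by 0.32 ± 0.11 and 0.64 ± 0.24 and were not called (adjusted p = 0.109 and 0.150). Tsc22d3 differed by 0.81 ± 0.28 and Fkbp5 by -0.69 ± 0.32, also without a call (adjusted p = 0.114 and 0.208). In Klf15 and Tsc22d3 normal diet 3 was the lowest array, at 8.10 and 8.08. The other arrays lay at 8.80 to 9.47 for Klf15 and at 8.87 to 9.77 for Tsc22d3.

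Hal and Oat mark opposite ends of the liver lobule, near the portal vein and the central vein, and each is counted in its zone's list here. Of 6 tested periportal genes none was called by limma (1 at an unadjusted p below 0.05, Hsd17b13 at 0.94 ± 0.24, adjusted p = 0.0572). Of 8 pericentral genes 1 fell, the cytochrome P450 gene Cyp1a2 (-1.03 ± 0.22, adjusted p = 0.0336). Of all tested genes 7.6% were called, 1.73% lower, and 27.6% had an unadjusted p below 0.05. Normal diet 3 was the lowest array in 4 of the 8 pericentral genes (Glul, Oat, Slc1a2 and Rhbg) and in 1 of the 6 periportal genes. The summed level of the periportal list was 14.22 to 14.36 in the normal diet arrays and 14.54 to 14.57 in the high-fat arrays, and that of the pericentral list 14.15 to 14.88 and 14.35 to 14.52.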

How the data were processed

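Liver RNA of 6 arrays, 3 per diet, was analysed. The deposited values are on the log2 scale. RMA and Affymetrix Expression Console 1.0 are what the submitters' processing notes name for them, with no further settings. RMA can compress differences near background.

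After 64 control probe sets were left out, 34945 probe sets had 1 gene symbol and 932 had several. For a gene with several probe sets the brightest on average was used, and 14071 genes above the 40th percentile of an array in at least 3 of 6 arrays were tested. Limma 3.58.1 in R 4.3.3 compared the diets (lmFit, eBayes, two-sided p), p-values were adjusted by Benjamini-Hochberg across the tested genes, and a call is an adjusted p below 0.05. Probe sets of a gene with a suffix can match several transcripts. Sequences came from RefSeq tables of the assembly GRCm38.p6. Python 3.11.15, pandas 2.3.3 and matplotlib 3.10.9 made the tables and figures.

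The members and lists were chosen with earlier results of these data known. Values in every array are given for genes that were called, differed by 1 or more, had an unadjusted p below 0.05, had probe sets of opposite sign with one past 0.5, or belong to a fixed set (Tat, Tdo2, Hal, Sds, Asns, Gnmt, Mat1a, Bckdk and Cth). From other lists the called genes, or up to 3 with the smallest p, are named (fewer for marker and zone lists), and the few others were chosen after their values were seen. Alternatives were other filters, probe set choices, scalings, variance models, thresholds, blocking by replicate number and omission of each array. On simulated data of 14071 genes limma called 16.4% of the genes given a 1.5-fold change, 77.6% of those given 2-fold and 97.0% of those given 4-fold, with 9 false calls. It made 0 calls where none was changed. The simulation changed few genes (67, 67 and 66 at the 3 sizes). It drew the same spread for both diets, with no array that stood apart, so its rates need not hold for these arrays. The number of arrays limits the precision.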

Additional observations from a re-analysis of the deposited data

How the results depend on the processing

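Of the 34 tested genes 23 kept the direction of their difference in every alternative that gave a value, up to 17 each, and 4 genes were called in at least one: Kmo, Aass, Agxt and Oat. Other level filters, the trend and robust variance model, the replicate block and testing probe sets one by one leave a gene's difference unchanged. These could alter calls but could not reverse a direction. No member was called higher under any alternative. The number called lower was 2 after quantile normalization, 2 after cyclic loess, 2 with array weights and 0 to 2 with an array left out. It was 0 at an adjusted p below 0.01 and 3 at 0.1, where all tested genes gave 172 and 2205 calls. Leaving out an array gave 169 to 1245 calls over all tested genes. The list's median difference was 0.15 in the main fit and 0.023 after cyclic loess. It was 0.027 with the mean of the probe sets, 0.030 with array weights and 0.060 after quantile normalization. Median centring gave the highest value, 0.19. Same-numbered arrays of the diets were not taken as pairs (correlations of their deviations -0.012, 0.036 and 0.10, and normal diet 1 correlated best with high-fat 2). With a replicate block 2 members were called lower, the added one being Agxt (-0.77, adjusted p = 0.0286), and 768 genes in all. Under that block Acad8, Acadsb, Pcca and Hao1 lost their calls.

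The other 11 genes changed sign at least once. Under quantile normalization Haao was at -0.047 and Cbs at -0.039. After cyclic loess Haao was at -0.12, Oat at -0.10 and Cbs at -0.064. With array weights Haao was at -0.030, Oat at -0.28, Mat1a at -0.013 and Bcat2 at -0.035. With the mean of the probe sets Kynu was at -0.027 and Mut at 0.026, and after median centring Mut was at 0.0086. With an array left out the difference ranged from -0.19 to 0.0027 for Fah, -0.039 to 0.061 for Haao, -1.03 to 0.032 for Psph, -0.47 to 0.31 for Oat, -0.19 to 0.52 for Prodh, -0.15 to 0.52 for Mat1a, -0.29 to 0.058 for Ahcy, -0.018 to 0.14 for Cbs, -0.099 to 0.16 for Bcat2 and -0.20 to 0.054 for Mut. The cause of these shifts was not tested. Signal near background limits Psat1, Bcat2, Ass1 and the weaker probe sets.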
